A study of Mus musculus with 6 samples.

Results

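The genes described here make, store, clear and sense noradrenaline: the synthesis enzymes Th, Ddc and Dbh, the noradrenaline transporter Slc6a2, the cotransmitter Npy, the breakdown enzyme Maoa and the adrenergic receptors Adrb1, Adra1a and Adra1b. These 9 genes were found by symbol among 55487 genes in the files, each as 1 row. Dbh was chosen because it had one of the lowest p-values between the diet groups in an earlier look at these data, and the others because they belong to its pathway. The study, on alcoholic cardiomyopathy, profiled left ventricles of male C57BL/6 mice aged 8 weeks by bulk RNA sequencing. Mice of the ET group ate a diet with 5% ethanol for 10 days and were then given 1 ethanol gavage. Mice of the CONT group ate an isocaloric diet without ethanol for the same time and were given maltose-dextrin by gavage. All animals were wild type, and ventricles were collected 9 h later. Each group had 3 libraries. The labels do not tie them to separate mice, so errors and p-values measure only the spread between libraries, which may be technical.

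Noradrenaline is made from tyrosine in steps. Th, the rate-limiting enzyme, makes DOPA, Ddc turns DOPA into dopamine, and Dbh hydroxylates dopamine to noradrenaline inside vesicles. In the heart it is released mainly by sympathetic nerve endings, whose cell bodies lie in ganglia outside the ventricle. Beta1-adrenergic receptors raise the force and rate of contraction through cAMP, and alpha1-adrenergic receptors signal through Gq and phospholipase C.

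The libraries held 28838386 to 37762233 expected counts. Ventricular cardiomyocyte markers were abundant in every library (12 of 12 with counts), and their summed level was 37590 to 48290 TPM in ET and 50250 to 53030 TPM in CONT. In CPM the groups overlapped, with 36220, 64320 and 58330 in ET replicates 1 to 3 and 58390, 65360 and 68770 in CONT replicates 1 to 3. All 8 atrial markers had a count in some library. Their summed level was 15360, 794 and 488 TPM in ET replicates 1 to 3 against 347, 258 and 2579 TPM in CONT replicates 1 to 3. ET replicate 1 and CONT replicate 3 thus stood apart in the sum, but not in every marker. Bmp10 had 2, 1 and 2 counts in ET and 0, 1 and 3566 in CONT, high in CONT replicate 3 only. The libraries also split in a way that the diet groups do not explain. The effective length of Myh6 was 1347, 1309 and 1365 bases in ET replicate 1 and CONT replicates 1 and 2 (set 1), and 2157, 2370 and 2061 bases in ET replicates 2 and 3 and CONT replicate 3 (set 2). For Dbh, Ddc, Adra1a and Adra1b the difference between diet groups is also given inside each set.

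The promoters of Dbh and Th, the enzymes that end and open the pathway to noradrenaline, are shown because Dbh separated the diet groups and Th was nearly undetected. Capitals mark matches, on either strand, to the cAMP response element TGACGTCA, its part TGACG, the AP-1 site TGANTCA and the homeodomain core TAATTG. Each window runs from 250 bases before to 50 bases after the RefSeq start on GRCm38.p6, at chr2:27165257-27165556 (plus strand) for Dbh and chr7:142899946-142900245 (minus strand) for Th.
Dbh: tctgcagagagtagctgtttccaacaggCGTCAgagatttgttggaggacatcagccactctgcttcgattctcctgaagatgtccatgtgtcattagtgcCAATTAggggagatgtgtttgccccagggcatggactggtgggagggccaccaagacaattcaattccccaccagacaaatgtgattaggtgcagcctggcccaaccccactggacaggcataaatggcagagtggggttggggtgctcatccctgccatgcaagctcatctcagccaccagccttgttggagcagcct
Th: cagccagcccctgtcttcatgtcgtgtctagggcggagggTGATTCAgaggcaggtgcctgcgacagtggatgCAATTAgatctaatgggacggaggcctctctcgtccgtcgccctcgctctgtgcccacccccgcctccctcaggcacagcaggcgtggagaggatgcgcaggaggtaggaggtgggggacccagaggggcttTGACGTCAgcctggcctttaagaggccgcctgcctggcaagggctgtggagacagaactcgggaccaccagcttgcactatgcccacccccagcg
The full cAMP response element was found in the Th window and in 1.79% of all 32851 promoter windows. The shorter TGACG, which the full element contains on both strands, was found in both windows and in 20.8% of all. The homeodomain core was found in both windows and in 8% of all, and the AP-1 site in the Th window and in 7.81% of all. Of the 9 genes 7 had a window in the RefSeq table, and none of their other windows held the full element.

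The synthesis enzymes were detected unequally. Th (chromosome 7, 142892752 to 142931128, minus strand, GRCm38) had 1, 0 and 0 expected counts in ET replicates 1 to 3 and 0 in each CONT library. Taken as 3 counts over the library total without TMM scaling, the limit that a count of 0 allows was 0.0893 and 0.0898 CPM in ET replicates 2 and 3, and 0.0794 to 0.104 CPM in the CONT libraries. These limits cover counting error only. Th mRNA was therefore not detectable at this depth in 5 of 6 libraries, while Ddc and Dbh, the enzymes after it, had at least 17 counts in each.

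Dbh (ENSMUSG00000000889, chromosome 2, 27165233 to 27183200, plus strand, protein-coding) was lower in ET. It had 27, 30 and 17 expected counts in ET replicates 1 to 3, against 98, 61 and 84 in CONT replicates 1 to 3. Scaled to library size, the values were 0.720, 0.882 and 0.553 CPM in ET and 2.68, 2.28 and 2.49 CPM in CONT. All 3 ET libraries lay below all 3 CONT libraries.

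The log2 fold change of Dbh (ET over CONT) was -1.78 ± 0.29 (SE), a level 3.44-fold lower in ET. Dbh was chosen for this contrast, where it ranked 10 of 15727 tested genes by p, so the difference is a description and no test is given for it. Inside the library sets the log2 ratio was -1.79 in set 1 and -1.79 in set 2, each resting on 1 library of one group. In bulk tissue, fewer cells of a type and less RNA per cell cannot be told apart. ET replicate 1, whose atrial marker sum was 15360 TPM, had 0.720 CPM of Dbh, and CONT replicate 3, whose atrial marker sum was 2579 TPM, had 2.49 CPM, each between the other libraries of its group.

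Ddc (chromosome 11, 11814101 to 11898144, minus strand), the decarboxylase that makes dopamine, varied widely inside both groups. It was at 0.853, 2.32 and 4.72 CPM in ET replicates 1 to 3 and at 1.92, 2.88 and 3.79 CPM in CONT replicates 1 to 3. The groups overlapped, and the lowest and the highest library were both ET. Its log2 fold change was -0.13 ± 0.58, while the library sets differed by 1.32 ± 0.48 (set 2 over set 1, with the group in the fit), which did not pass either (adjusted p 0.207, edgeR). The difference between diet groups was -0.75 ± 0.48 with a term for the sets, -1.49 inside set 1 and -0.11 inside set 2. Per length, the ratio of Dbh to Ddc TPM was 0.427, 0.216 and 0.0755 in ET and 0.792, 0.450 and 0.536 in CONT, without overlap between the groups, which follows in part from the choice of Dbh.

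**Figure D1:**
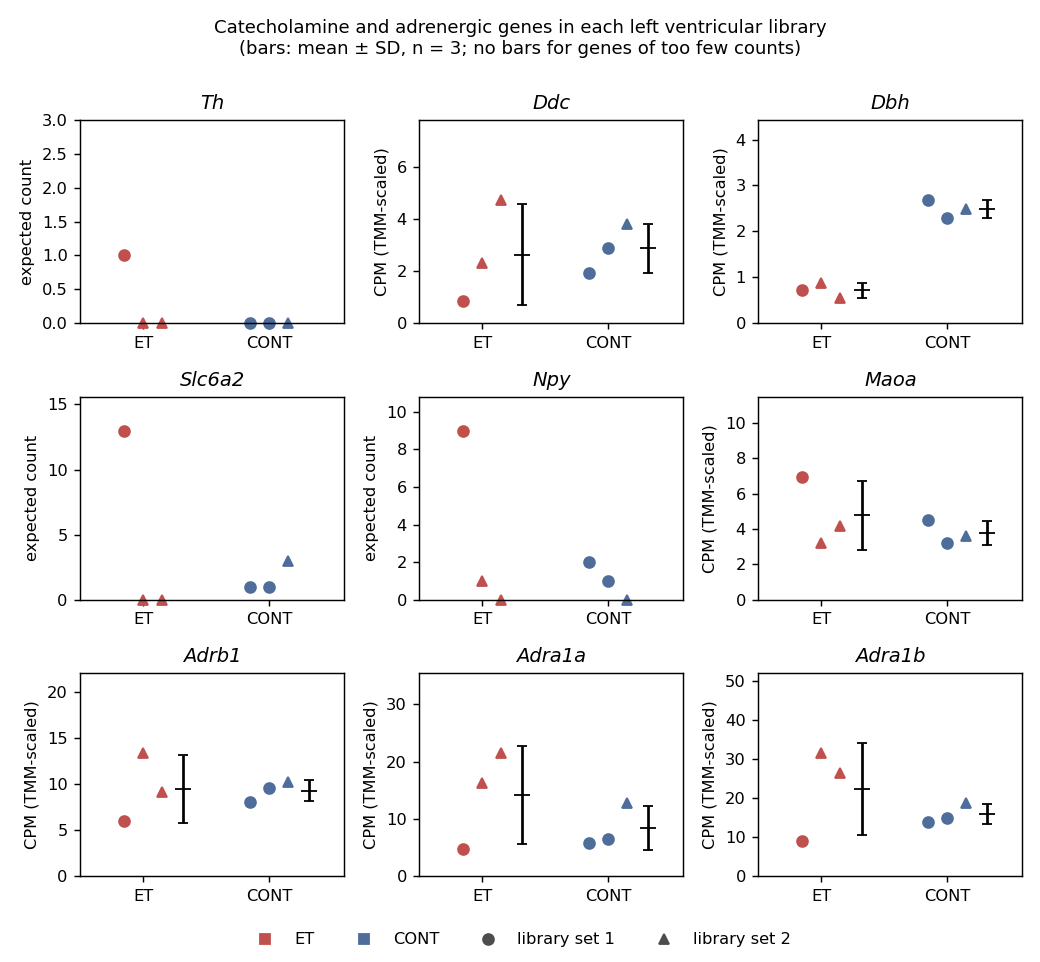
Values of the 9 genes in each library, as TMM-scaled CPM (mean ± SD, n = 3) or, for Th, Slc6a2 and Npy, in expected counts. Colours mark the groups and symbols the library sets. Dbh is the gene whose ET libraries (0.553 to 0.882 CPM) all lie below the CONT libraries (2.28 to 2.68 CPM), and Adra1a and Adra1b are high in the libraries of set 2.

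Other genes of noradrenergic nerve endings were scarce. Slc6a2 (chromosome 8, 92960079 to 93001667, plus strand), which takes noradrenaline back into the nerve ending, had 13, 0 and 0 expected counts in ET replicates 1 to 3 and 1, 1 and 3 in CONT replicates 1 to 3. Npy (chromosome 6, 49822710 to 49829507, plus strand), the peptide released with noradrenaline, had 9, 1 and 0 counts in ET and 2, 1 and 0 in CONT. Most counts of both genes lay in ET replicate 1, the library with the highest atrial (15360 TPM), fibroblast (1007 TPM) and Schwann cell (72.3 TPM) marker sums, and the part of these cells in the counts was not tested. Without that library the ET group held 0 counts of Slc6a2 and 1 of Npy. Th, Slc6a2 and Npy had too few counts for the fit across genes, which left 6 of the 9 genes there.

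Sympathetic neuron markers were unevenly detected. Of 20 sympathetic neuron markers 19 had a count in any library and 9 had enough for the fit. Chrna3, a ganglionic nicotinic receptor subunit, was at 0 throughout. Phox2a, a homeodomain factor known to activate the Dbh gene, had 5, 7 and 7 counts in ET replicates 1 to 3 and 17, 7 and 11 in CONT replicates 1 to 3. The summed level of the list was 46.9, 45.8 and 28.8 TPM in ET and 30.5, 32.2 and 38.6 TPM in CONT, and the groups overlapped. Uchl1, a deubiquitinase abundant in neurons, was at 10.5, 8.50 and 7.39 CPM in ET and 6.79, 7.003 and 5.80 CPM in CONT, higher in 3 of 3 ET libraries (0.43 ± 0.18, adjusted p 0.571, edgeR). Hand2, a factor that heart cells also express, made up 21.5, 29.5 and 16.5 TPM of the list sum in ET and 15.8, 18.2 and 23.6 TPM in CONT. Genes on the opposite strand overlap 18.1% of the exon bases of Uchl1 and 19.6% of those of Hand2, so these values are uncertain. The cholinergic markers Chat and Slc18a3 were at 0 in all libraries. Of the chromaffin markers, Chga had at most 1 count in any library. Chgb had 8, 7 and 7 counts in ET replicates 1 to 3 and 6, 8 and 14 in CONT replicates 1 to 3. All 6 chromaffin markers had a count in some library. Their summed level was 15.16, 7.38 and 7.13 TPM in ET and 6.19, 7.1 and 9.09 TPM in CONT.

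Maoa (chromosome X, 16619698 to 16687818, plus strand), the mitochondrial enzyme that deaminates noradrenaline and serotonin, was highest in ET replicate 1. It was at 6.96, 3.20 and 4.20 CPM in ET replicates 1 to 3 and at 4.52, 3.18 and 3.58 CPM in CONT replicates 1 to 3, and the groups overlapped. Its log2 fold change of 0.35 ± 0.32 was -0.01 without ET replicate 1.

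Among the receptors, Adrb1 (chromosome 19, 56722199 to 56733113, plus strand), the main beta-adrenergic receptor of cardiomyocytes, was at 5.97, 13.3 and 9.15 CPM in ET replicates 1 to 3. It was at 8.02, 9.59 and 10.3 CPM in CONT replicates 1 to 3. The ET libraries enclosed the CONT libraries on both sides, and the means were close (9.49 ± 3.70 against 9.29 ± 1.15 CPM, SD, n = 3 each). On the log2 scale the fold change was 0.03 ± 0.29, and its sign turned in 6 of 20 alternative settings.

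Adra1a (chromosome 14, 66635251 to 66771168, plus strand), a Gq-coupled receptor of cardiomyocytes, was at 4.69, 16.3 and 21.5 CPM in ET replicates 1 to 3. It was at 5.88, 6.44 and 12.8 CPM in CONT replicates 1 to 3. The groups overlapped, but the library sets did not: set 2 had 16.9 ± 4.34 CPM and set 1 had 5.67 ± 0.893 CPM (SD, n = 3 each). The log2 fold change between diet groups was 0.75 ± 0.55, and it was 0.10 ± 0.25 with a term for the sets, -0.39 inside set 1 and 0.56 inside set 2.

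Adra1b (chromosome 11, 43774606 to 43901210, minus strand), the most abundant adrenergic receptor transcript here, had the same split. It was at 9.15, 31.5 and 26.6 CPM in ET replicates 1 to 3 and at 13.9, 15.1 and 18.9 CPM in CONT replicates 1 to 3. Set 2 had 25.7 ± 6.39 CPM and set 1 had 12.7 ± 3.15 CPM, without overlap. Between diet groups the log2 fold change was 0.49 ± 0.42, and it was -0.01 ± 0.30 with the set term, -0.66 inside set 1 and 0.62 inside set 2.

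With the group in the fit, set 2 exceeded set 1 by 1.53 ± 0.26 (log2) for Adra1a and by 1.02 ± 0.31 for Adra1b. Neither passed in edgeR's quasi-likelihood test after Benjamini-Hochberg adjustment (adjusted p 0.112 and 0.172). In that test 0 of 15727 genes passed between the sets and 3244 (20.6%) had an unadjusted p under 0.05. Of the 6 tested genes, 2 had no overlap between the sets, both higher in set 2, against 29.4% of all tested genes in either direction and 15.3% in that direction. Dbh differed by -0.0005 ± 0.31 between the sets. Whether the sets are technical or stem from the tissue was not tested.

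**Figure D2:**
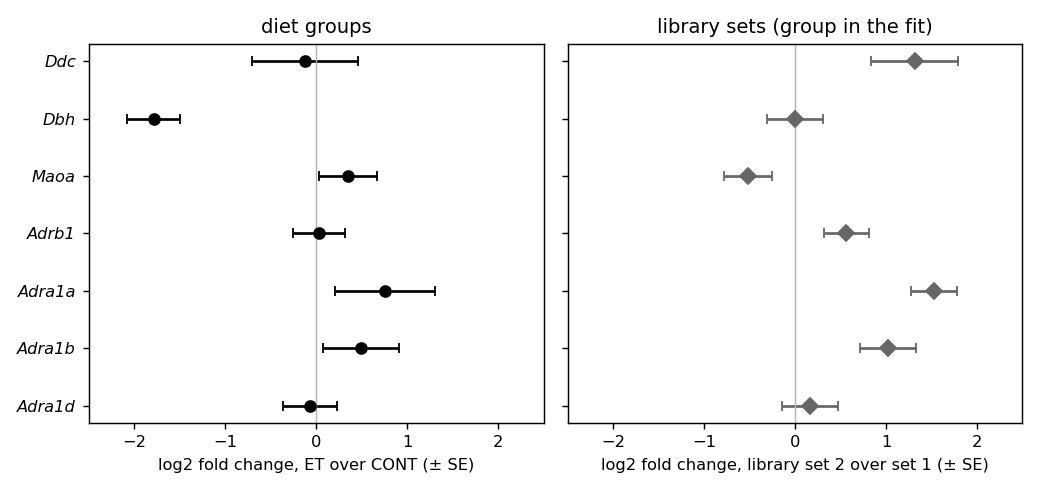
Log2 fold changes (± SE, edgeR) of 7 genes between diet groups (ET over CONT, left) and between library sets (set 2 over set 1 with the group in the fit, right). Dbh differs between the diet groups (-1.78) and not visibly between the sets, while Adra1a (1.53) and Adra1b (1.02) show the larger value between the sets.

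Levels of different genes can be set side by side per length, in TPM. In ET the order of mean level was Adra1b (10.01 ± 5.40 TPM), Adra1a (4.03 ± 2.21), Adrb1 (3.60 ± 1.31), Ddc (1.79 ± 0.980), Maoa (1.29 ± 0.668) and Dbh (0.313 ± 0.0907), with Npy, Th and Slc6a2 below 0.3 TPM on average (SD, n = 3). In CONT it was Adra1b (5.90 ± 2.09 TPM), Adrb1 (3.22 ± 0.492), Adra1a (2.17 ± 1.13), Ddc (1.81 ± 0.560), Dbh (1.02 ± 0.232) and Maoa (0.867 ± 0.169), and the same 3 genes came last. Neighbours in this order whose ranges did not meet were Maoa and Dbh in ET, and Adra1b and Adrb1 in CONT as well as Maoa and Npy in CONT. Dbh thus stood below Maoa in every ET library, whereas in CONT the ranges of Dbh and Maoa overlapped.

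The adrenergic receptor genes described next, outside the chosen members, were lower in level than Adrb1. Adra1d, the third alpha1 receptor, was at 0.740 ± 0.145 TPM in ET and 0.677 ± 0.214 TPM in CONT (SD, n = 3). The alpha2 receptors, which brake noradrenaline release, were low: Adra2b averaged 0.297 TPM in ET and 0.190 TPM in CONT, Adra2c 0.247 and 0.103 TPM, and Adra2a 0.0167 and 0.0100 TPM. Adrb3 had 17, 0 and 0 counts in ET replicates 1 to 3 and 3, 0 and 8 in CONT replicates 1 to 3, so its counts were highest in the libraries of the highest atrial markers. Of its exon bases 24.9% overlap a gene on the opposite strand, and of those of Adra1d 7.74%, so these values are uncertain.

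The alpha1 receptors made up 51.6%, 73.5% and 80.1% of the summed receptor TPM in ET replicates 1 to 3, and 56.3%, 60.0% and 68.7% in CONT replicates 1 to 3. Adra1a and Adra1b together stood to Adrb1 as 2.13, 3.85 and 5.53 to 1 in ET and as 2.11, 2.12 and 3.12 to 1 in CONT. The ratio was lowest in the libraries of set 1 and highest in those of set 2, and the diet groups overlapped because ET replicate 1 lay with the CONT libraries of set 1.

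**Figure D3:**
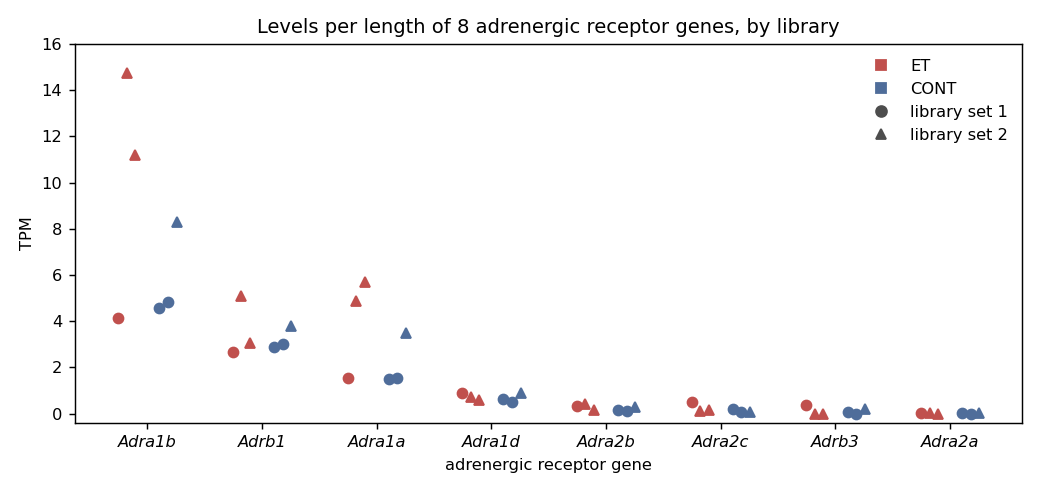
TPM of 8 adrenergic receptor genes in each library, ordered by mean level in CONT, with ET left of CONT for each gene. Adra1b is the highest in every library (4.13 to 14.7 TPM in ET, 4.56 to 8.30 TPM in CONT), and triangles (set 2) lie above circles (set 1) for Adra1b and Adra1a.

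Across all genes, edgeR's quasi-likelihood test called 0 of 15727 between ET and CONT (0%), and 1360 (8.65%) had an unadjusted p under 0.05. Of the 6 tested members, 1 had no overlap between the groups, Dbh, against 15.2% of all tested genes and 8.35% lower in ET, and nothing is read from this count since Dbh was chosen from the contrast. No tested member was higher in ET without overlap, against 6.89% of all tested genes. Of the 6, 4 had a log2 fold change above 0, against 51.9% of all, and 1, Dbh, had one of 1 or more in size, against 5.65% of all. In the 11 pathway lists 0 genes passed, and each gene of these lists named below, other than Dbh, had an adjusted p of 0.478 or more (edgeR, Benjamini-Hochberg).

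Genes of catecholamine synthesis had mixed differences. Of 8 tested genes 3 were higher and 5 lower in ET, with a median log2 fold change of -0.08 against 0.01 over all tested genes. Pts, which makes the tetrahydrobiopterin cofactor of Th, was at 16.8 ± 2.39 CPM in ET and 22.9 ± 1.62 CPM in CONT without overlap (-0.45 ± 0.15). Gch1, the first enzyme of that cofactor's synthesis, was at 7.55 ± 1.48 and 6.18 ± 0.723 CPM. Pnmt, which turns noradrenaline into adrenaline, was at 3.25, 0.559 and 0.814 CPM in ET replicates 1 to 3 and at 0.684, 0.674 and 0.473 CPM in CONT replicates 1 to 3, so that ET replicate 1 alone set its mean apart.

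Vesicle, uptake and cofactor genes are the machinery around Dbh. Slc18a2, the vesicular monoamine transporter, was the 1 tested gene of 7 in its list and was also highest in ET replicate 1 (6.48, 2.12 and 1.53 CPM in ET, 2.57, 1.80 and 1.98 CPM in CONT). Of the uptake transporters outside nerve endings, Slc22a3 was at 2.79 ± 0.311 and 3.26 ± 0.576 CPM (ET and CONT, SD, n = 3 each). Dbh needs copper and ascorbate. Atp7a, which pumps copper into the secretory pathway, was at 3.41, 3.68 and 3.22 CPM in ET and 2.05, 1.95 and 1.81 CPM in CONT, higher in 3 of 3 ET libraries (0.83 ± 0.21, adjusted p 0.478, edgeR). Cyb561, which regenerates ascorbate in vesicles, was at 15.6 ± 4.10 and 11.7 ± 2.05 CPM in ET and CONT, and a gene on the other strand overlaps 10.3% of its exon bases. Pam, a copper enzyme of the same family, had 1766, 412 and 366 CPM in ET and 220, 194 and 913 CPM in CONT, highest in the 2 libraries with the highest atrial marker sums. Of 7 tested genes in this list 4 were higher and 3 lower in ET, with a median of 0.03.

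Of 9 breakdown genes 6 were higher and 3 lower in ET, against 51.9% of all tested genes higher. Their median log2 fold change was 0.35, against 0.01 over all tested genes. Sult1a1, a phenol sulfotransferase, was at 66.7 ± 16.6 CPM in ET and 39.8 ± 2.44 CPM in CONT without overlap (0.75 ± 0.20). Akr1b3, aldose reductase, was lower without overlap in CPM (96.9 ± 19.6 and 125.5 ± 4.54 CPM). In TPM its groups overlapped, with 93.6 in ET replicate 2 against 89.9 and 88.2 in CONT replicates 1 and 2. The list median is the value of Maoa itself. It was 0.15 without ET replicate 1, 0.16 without ET replicate 3 and 0.21 without CONT replicate 1, and 0.02 inside set 1 and 0.19 inside set 2.

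Of the neuropeptide Y list, Npy2r and Npy5r were at 0 in all libraries, and the 2 tested genes, a receptor and a peptidase, were highest in ET replicate 1. Npy1r was at 7.17, 1.499 and 1.04 CPM in ET replicates 1 to 3 and at 1.12, 0.674 and 1.95 CPM in CONT replicates 1 to 3. Dpp4, which trims the peptide, was at 13.7, 3.06 and 1.33 CPM in ET and 2.85, 2.13 and 2.57 CPM in CONT. Without ET replicate 1 the median of these 2 tested genes was -0.08, against 1.31 with it.

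Downstream of the receptors, 15 of 24 transduction genes were higher and 9 lower in ET, with a median of 0.08. Adcy9, an adenylyl cyclase, was at 3.79, 11.2 and 15.9 CPM in ET replicates 1 to 3 and at 4.46, 3.75 and 6.66 CPM in CONT replicates 1 to 3, high in the libraries in which Adra1a was high. Adcy4 was at 23.7 ± 4.28 and 35.0 ± 8.39 CPM, and Gnai1, an inhibitory G protein subunit, at 3.42 ± 2.47 and 1.72 ± 0.205 CPM (ET and CONT). Of 17 genes for desensitisation and cAMP breakdown, 10 were higher and 7 lower, with a median of 0.15, which was -0.04 without ET replicate 1. Grk5, a kinase that turns off activated receptors, was higher in 3 of 3 ET libraries (35.3 ± 4.11 and 28.2 ± 1.94 CPM, 0.32 ± 0.14). Pde4a, a cAMP phosphodiesterase, was lower in 3 of 3 in CPM (39.5 ± 5.22 and 55.2 ± 4.70 CPM, -0.48 ± 0.15). In TPM its groups overlapped, with 10.6 in ET replicate 2 against 10.3 in CONT replicate 2. Pde3a overlapped between the groups (56.9 ± 20.8 and 39.5 ± 12.98 CPM).

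Among 14 tested cAMP-responsive genes, 5 were higher and 9 lower in ET, with a median of -0.10, against 51.9% of all tested genes higher. Of the 14, 0 had groups that did not overlap, against 15.2% of all tested genes, and nothing is read from this count. Nr4a1, an orphan nuclear receptor induced by beta-adrenergic stimulation, was at 8.98, 4.29 and 20.4 CPM in ET replicates 1 to 3 and at 34.7, 12.8 and 32.8 CPM in CONT replicates 1 to 3. Nr4a3 was at 3.14 ± 1.03 and 2.13 ± 0.968 CPM, and Gem at 4.02 ± 2.20 and 2.57 ± 0.715 CPM (ET and CONT). Of 11 neurotrophin and guidance genes 7 were higher and 4 lower in ET, with a median of 0.20. Sema3a, which repels sympathetic axons, was at 3.79, 1.85 and 1.92 CPM in ET and 1.45, 1.39 and 1.27 CPM in CONT, without overlap (0.88 ± 0.35, adjusted p 0.561, edgeR). Its receptor Nrp1 was at 67.3 ± 6.28 and 92.6 ± 28.6 CPM, and the neurotrophin Ntf3 at 2.495 ± 0.617 and 3.42 ± 1.05 CPM.

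**Figure D4:**
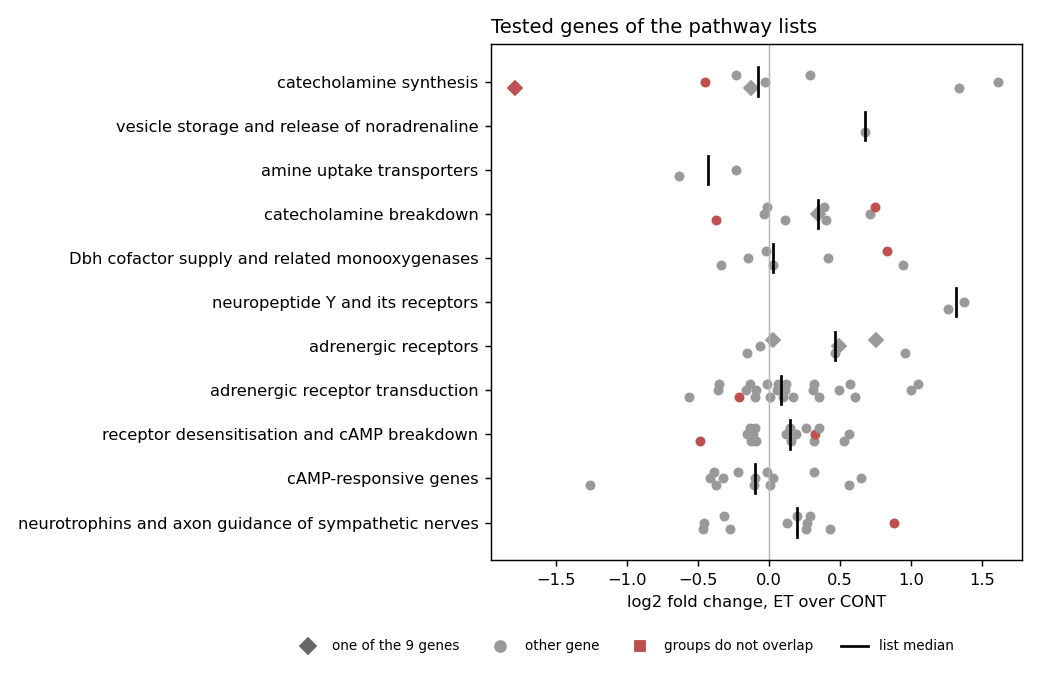
Log2 fold changes (ET over CONT) of the tested genes in the 11 pathway lists, with diamonds for the 6 of the 9 genes that were tested, red for genes whose groups do not overlap and a bar at each list's median. Dbh (-1.78) lies farthest from 0, and most lists spread to both sides.

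The genes whose log2 CPM followed Dbh most closely over the 6 libraries were Parp2, Yju2, Lrrc27, Hspb3, Sh3bgr, Trmt1l, Zscan21 and St5, with Pearson's r from 0.978 to 0.990. Of 12016 genes compared, 35 reached 0.95, and these values rest on 6 libraries in 2 groups. Their differences were smaller than that of Dbh: Lrrc27 was at 3.18 ± 0.201 CPM in ET and 6.27 ± 0.359 CPM in CONT, and Parp2 at 10.2 ± 0.224 and 12.2 ± 0.0687 CPM. Among the other tested members r with Dbh lay between -0.39 (Adra1a) and 0.12 (Ddc). The neighbours of Dbh on chromosome 2 did not share its pattern. Sardh, sarcosine dehydrogenase, which begins 5192 bases beyond Dbh on the opposite strand, was at 7.71, 3.06 and 9.24 CPM in ET replicates 1 to 3 and at 5.39, 4.34 and 4.67 CPM in CONT replicates 1 to 3. Fam163b, 22741 bases before Dbh, had 2, 9 and 9 counts in ET and 4, 4 and 8 in CONT.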

How the data were processed

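Per the submitters' processing notes, STAR 2.7.0f, RSEM 1.2.31 and the mm10 build were used; which annotation release was taken, and whether strand was used, is not given in the sources used here. The authors deposited expected counts per gene, not normalized, of which 65.7% to 67.3% of the nonzero values were whole within 0.005, and per-library TPM and FPKM values, scaled by the authors per the file headers. Here expected counts were rounded, genes filtered with filterByExpr (minimum count 10, minimum total 15), scaled with TMM factors (0.920 to 1.19) and compared by edgeR's robust quasi-likelihood test over 15727 genes, two-sided, with Benjamini-Hochberg adjustment at 0.05 and no covariate. An SE is the log2 fold change divided by the square root of F. TPM was used for levels between genes, and FPKM for effective lengths (expected counts over FPKM, scaled by the library total). Library sets were split at the widest gap in the effective length of Myh6. Coordinates and exon overlaps come from GENCODE vM21 (GRCm38).

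The 9 genes, the lists and the tests were chosen with earlier results of these data known. Named besides the 9 genes are the other adrenergic receptors, up to 3 genes per list with a mean CPM of at least 1 and the lowest p, the 8 genes most like Dbh in log2(CPM + 0.5) among genes with a mean CPM of at least 1, and the nearest measured genes beside Dbh. Some genes that this rule names are not reported here. The promoter motifs were chosen with the sequences in view. Replicate numbers follow the order of deposit. Fits ran in edgeR 4.0.16, DESeq2 1.42.0 and limma 3.58.1 under R 4.3.3, and tables and plots in pandas 2.3.3, scipy 1.17.1 and matplotlib 3.10.9 under Python 3.11.15. The fit was tested on simulated data. Alternatives were RLE, upper-quartile and unscaled totals, no filter or a stricter one, limma-voom, DESeq2, limma-trend with a pseudocount of 1 or 0.1 TPM, removal of mitochondrially encoded genes, a set term, values inside each set, and leaving out libraries.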

Additional observations from a re-analysis of the deposited data

How the results depend on the processing

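The log2 fold change of Dbh kept its sign in all 20 alternatives run. They reuse the libraries from which Dbh was chosen, where its groups do not overlap, so nothing is read from this count. The log2 fold change of Dbh was -0.62 on log2(TPM + 1), where the pseudocount is above its ET level. It was -1.45 on log2(TPM + 0.1), where the cause was not tested, and -1.96 to -1.63 without single libraries. The signs of Adra1a, Adra1b, Maoa, Ddc and Adrb1 were kept in 19, 18, 18, 17 and 14 of 20. Genes called between ET and CONT were 0 in edgeR and limma-voom, 184 in DESeq2, 1 on log2(TPM + 1), 2 on log2(TPM + 0.1), and 0 without any single library. With CONT replicate 3 and ET replicate 1 both left out, where group and library set coincide and cannot be told apart, edgeR called 825. Genes of the pathway lists called were 2 in DESeq2 (Atp7a and Dbh, the second chosen from this contrast), where 184 of all 15727 tested genes were called. They were 10 with those libraries left out, Dbh, Adra1a and Adra1b among them, where 825 of all 15715 tested genes were called. Nothing is read from these list counts. With both libraries left out, the log2 fold change of Adra1a was 1.64. The number of members without overlap, 1 of 6, was 1 to 3 without single libraries. It was 3 without ET replicate 1 (36.6% of all tested genes there had no overlap) and 3 with both libraries left out (60.7% of all). Inside each set 1 of the groups is 1 library and the share of all genes was not computed, so no count is given there. Library totals only moved the median of all genes to 0.12, and the TPM scales to 0.15 and 0.18. The median of the adrenergic receptor list, 0.46, was -0.01 with the set term. Of the 8 genes most like Dbh, 2 had the same order of libraries as Dbh and 1 was among the 8 in TPM. No paired analysis was possible because the labels carry no replicate numbers. Depth limits Th, Slc6a2 and Npy, which had too few counts for any fold change here.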

Other observations

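The effective length of Adra1b, which depends on the mix of transcripts that RSEM assigned, was 2296 and 2285 bases in ET replicates 2 and 3 and 2370 bases in CONT replicate 3, against 2684 bases in ET replicate 1 and 2797 and 2751 bases in CONT replicates 1 and 2. The library sets, read from Myh6 alone, therefore also separate this receptor gene by length. They did not separate Adra1a (3603 to 3744 bases in set 1, 3590 to 3836 in set 2). Nor did they separate Adrb1 (2569 to 2809 bases in set 1, 2803 to 2879 in set 2). For Ddc the sets only just parted (1252 to 1415 bases in set 1, 1416 to 1659 in set 2). For Maoa, with 1 transcript in the files, the effective length was 4081 to 4106 bases over all 6 libraries. For Dbh it was 2445 and 2480 bases in ET replicates 1 and 2, and 2472, 2489 and 2043 bases in CONT replicates 1 to 3.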
